A study of Mus musculus with 9 samples.

Results

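The comparison set haematopoietic stem cells in which both Bcl11a alleles were deleted against cells with an intact gene, on 3 arrays each (6 of the 9 arrays of the series). Its members were all genes named by a single symbol, each read from a single probe set, the one whose mean over all 9 arrays was highest. There were 22180 such genes, and 16636 of them passed a filter that left out the 25% with the lowest means. The cells came from bone marrow of mice aged 6 to 8 months. Bone marrow was enriched for CD117 and sorted as lineage-negative Sca-1+ c-Kit+ cells that were CD48-, Flt3- and CD150+. Every animal carried at least 1 loxP-flanked Bcl11a allele and received 5 injections of poly(I:C). The animals called KO had the floxed gene on both chromosomes (Bcl11a fl/fl) and carried Mx1-Cre. WT animals had the same floxed alleles and no Cre, so their gene stayed intact. Het animals (Bcl11a fl/wt with Mx1-Cre, 3 arrays) shared the fit and are given only beside KO and WT values. Because Cre was present in every KO and no WT animal, an effect of Cre and an effect of Bcl11a loss cannot be told apart. Mx1-Cre is switched on by interferon in many tissues besides blood, and the sort took YFP+ or YFP- cells without a label for each array.

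BCL11A is a zinc finger transcription factor that represses genes by recruiting chromatin-modifying complexes. It is best known as a repressor of fetal globin in red cell precursors and as a factor needed for B cell development. Haematopoietic stem cells are rare, mostly quiescent marrow cells that renew themselves and give rise to all blood lineages. Poly(I:C) is a double-stranded RNA mimic that raises interferon, which in turn drives the Mx1 promoter and acts on marrow cells directly.

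Values are RMA expression levels on a log2 scale, so a difference of 1 is a factor of 2, and differences are KO minus WT. Arrays of 1 genotype correlated across genes at 0.919 to 0.968. For scale, Xist on arrays from male animals and 4 Y-linked genes on arrays from female animals, transcripts that should be absent, read between 2.22 and 4.22. Xist put 1 of 3 KO arrays (replicate 3) and 2 of 3 WT arrays (replicates 1 and 3) in female animals. The interquartile range of an array's values ran from 2.42 to 2.83 in KO and from 2.22 to 2.69 in WT.

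Bcl11a itself read 8.73, 8.81 and 8.38 in the 3 WT arrays and 7.82, 7.90 and 8.66 in the 3 KO arrays. KO replicates 1 and 2 lay below every WT array, and KO replicate 3 lay inside the WT range. The mean difference was -0.51 (SE 0.288, limma adjusted p = 0.655). A two-sided exact permutation test over the 6 arrays gave p = 0.2, and with 3 against 3 arrays it cannot go below 0.1. Which part of the gene was deleted is not stated by the labels, and a probe set outside it would not read the deletion. A second Bcl11a probe set, with a lower mean, read 6.38, 8.08 and 6.93 in WT and 7.26, 6.94 and 7.39 in KO, and its groups overlapped. With each gene read as the mean over its probe sets, the Bcl11a difference was -0.22. Without KO replicate 3 the difference was -0.78. KO below means the arrays labelled KO, replicate 3 included, and values without that array are given beside some of the results that it moved. KO replicate 3 was also the only KO array from a female animal. Leaving it out made the KO group all male, so sex and other traits of that array cannot be told apart.

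Across all genes, 7 of 16636 passed an adjusted p of 0.05 (0.0421%). Of these, 6 rose in KO (0.0361%) and 1 fell (0.00601%). At an unadjusted p under 0.05, which is no call and serves below only to describe lists, 1366 genes stood out (8.21%), 899 of them higher (5.4%) and 467 lower (2.81%). The 3 KO arrays lay wholly above the 3 WT arrays for 1083 genes (6.51%) and wholly below them for 1218 (7.32%). Among genes that were both separated in this way and at least 1 apart in mean, 321 were higher and 62 lower. The KO mean was above the WT mean for 45.4% of genes and below it for 54.4%. With a median standard error of 0.298 per gene, many single differences under 1 were not detectable with this number of arrays.

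The direction of a gene's difference moved with its level. In the 25% of tested genes with the lowest means (3.31 to 4.04) the median difference was -0.19 and 22.6% of genes were higher in KO. In the 25% with the highest means (6.09 to 12.65) the median was 0.16 and 65% were higher. The interquartile range was wider on KO replicates 1 and 2 (2.83 and 2.80) than on any WT array (2.22, 2.47 and 2.69). KO replicate 3, at 2.42, lay inside the WT range. The part of array spread in single results was not tested. When each array's interquartile range was added to the model (array spread in the model, below), the count at unadjusted p under 0.05 became 573 higher and 524 lower, and with arrays centred on their medians it became 1138 and 291. A list of weakly expressed genes therefore tended to a median below 0, and a list of strongly expressed genes to a median above 0, before any family was considered. For some of the lists below, the median of the 25% of genes at their level is given beside their own.

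**Figure D1:**
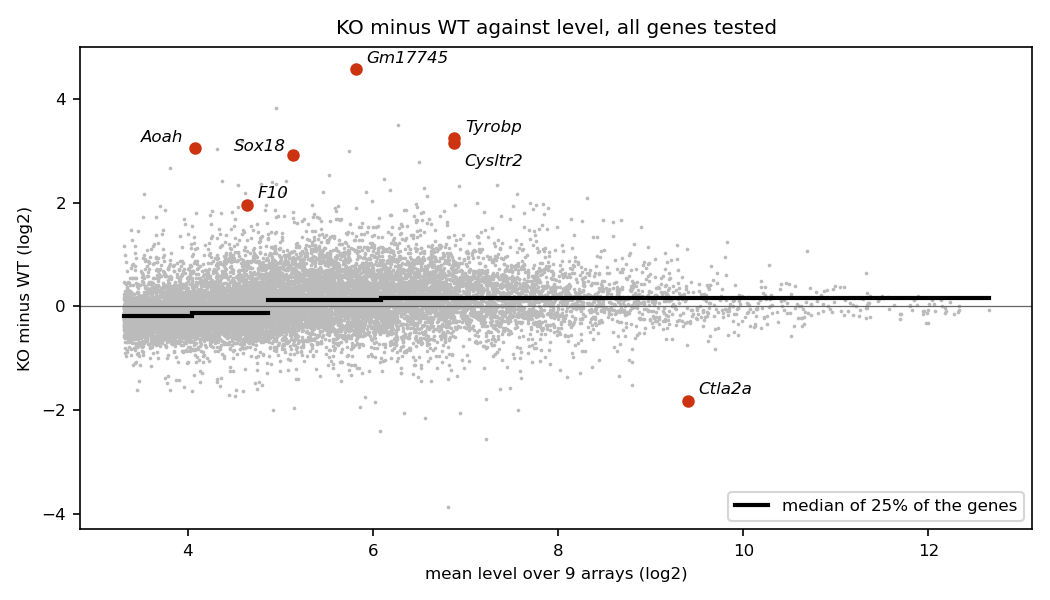
Difference between KO and WT (log2, vertical axis) against the mean level over 9 arrays (log2, horizontal axis) for the 16636 tested genes, with the 7 genes past the adjusted threshold named and the median of each successive 25% of the genes drawn as a black step. The median climbs from -0.19 in the lowest to 0.16 in the highest.

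The 7 genes that passed came from several functions: an endothelial transcription factor, a leukotriene receptor, an adaptor of immune receptors, a lipid A-degrading enzyme, a clotting factor, a protease inhibitor and a predicted gene. Sox18, a transcription factor of the SoxF group that acts in blood and lymph vessel formation, read 4.08, 3.61 and 3.69 in WT and 6.91, 7.23 and 6.01 in KO. It rose by 2.92 (SE 0.330, limma adjusted p = 0.0289), from levels in the range of absent transcripts in all 3 WT arrays to well above it in all 3 KO arrays. Cysltr2, a receptor for cysteinyl leukotrienes, read 4.86, 5.78 and 5.27 in WT and 9.04, 8.16 and 8.14 in KO, a rise of 3.14 (SE 0.365, limma adjusted p = 0.0289) or 8.84-fold. The groups were more than 2 apart at their nearest arrays. Tyrobp, which encodes the ITAM adaptor DAP12, read 5.66, 5.66 and 5.61 in WT and 8.89, 7.99 and 9.78 in KO, a rise of 3.24 (SE 0.426, limma adjusted p = 0.0432). Its highest value was in KO replicate 3, the array whose Bcl11a level matched WT.

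Aoah encodes acyloxyacyl hydrolase, which strips fatty acyl chains from lipopolysaccharide. It read 3.60, 2.51 and 2.56 in WT, in the range of absent transcripts, and 6.05, 5.80 and 5.94 in KO (difference 3.04, SE 0.399, limma adjusted p = 0.0432). F10, the gene of coagulation factor X, read 4.04, 4.31 and 3.73 in WT and 6.37, 5.57 and 6.02 in KO (difference 1.96, SE 0.262, limma adjusted p = 0.0432). Gm17745, a predicted gene with no assigned function, showed the largest difference of all, 4.57 (SE 0.470, limma adjusted p = 0.0282), from 3.40, 4.44 and 2.98 to 8.24, 8.10 and 8.19. The single gene that fell was Ctla2a, an inhibitor of cathepsin-like cysteine proteases. It read 10.16, 10.18 and 9.94 in WT and 8.20, 8.48 and 8.17 in KO, a fall by 1.81 on the log2 scale (SE 0.231, limma adjusted p = 0.0432) or 3.51-fold, with every KO array more than 1 below every WT array.

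These calls were close to the threshold. Without KO replicate 3, 15 genes passed, 4 of them among the 7 (Sox18, Gm17745, Cysltr2 and Tyrobp). Without WT replicate 1 or without KO replicate 1 no gene passed. Fitted on the 6 KO and WT arrays alone, 1 gene passed. The difference of each of the 7 kept its sign and most of its size under every alternative tried: Sox18 stayed between 2.67 and 3.42, Tyrobp between 2.80 and 3.69 and Ctla2a between -1.91 and -1.72. In 6 of the 7 genes the Het mean lay between the WT and KO means. The exception was F10, at 3.90 in Het against 4.03 in WT.

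**Figure D2:**
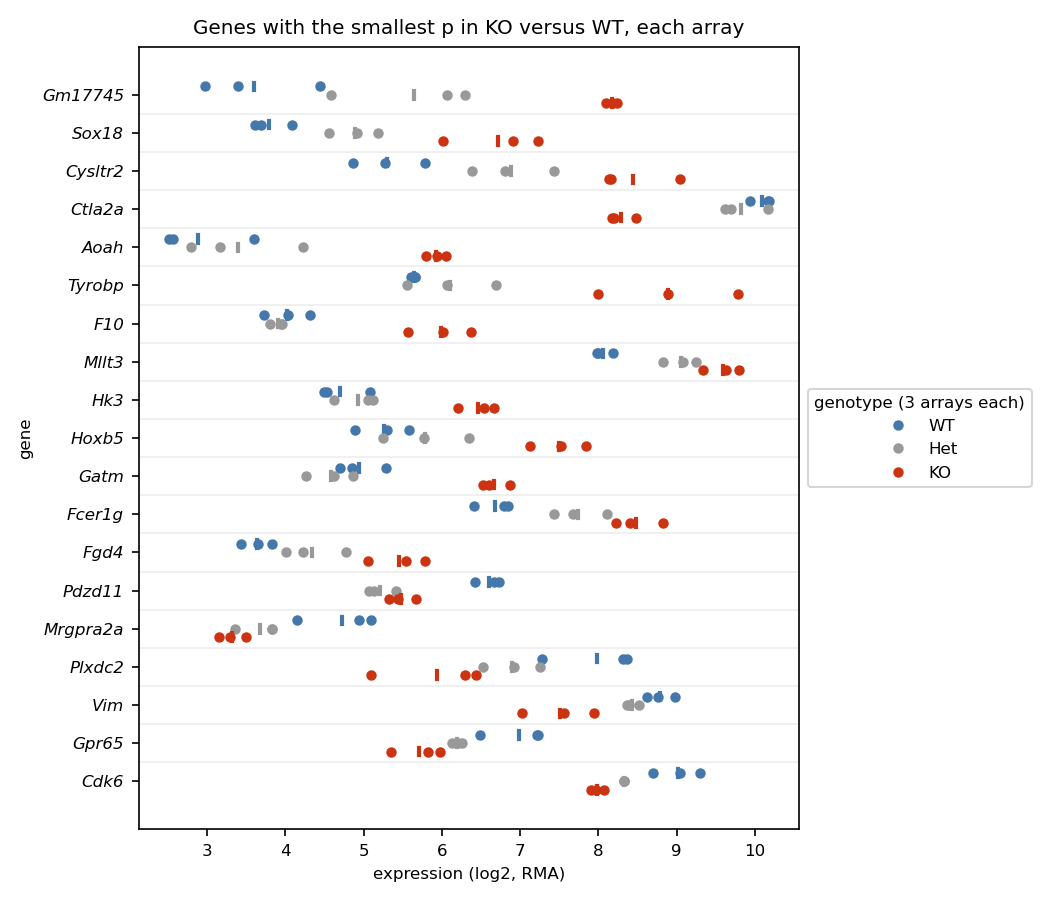
Expression (log2 RMA, horizontal axis) on each WT (blue), Het (grey) and KO (red) array for the called genes and the next genes by p in each direction; points are arrays and short bars are genotype means (n = 3). KO points of Gm17745, Sox18, Cysltr2, Aoah, Tyrobp and F10 lie to the right of every WT point, and those of Ctla2a and of the last 6 genes to the left.

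The next genes by p did not pass, and their arrays did not overlap between KO and WT. The 30 named genes higher in KO with the smallest p differed by 1.38 to 3.24, with limma adjusted p from 0.0289 to 0.175. In 9 of them the WT mean was at or below 4.22, the top of the absent range. In 28 of the 30 the Het mean lay between WT and KO, again in genes picked for the gap between those groups.

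Among transcription regulators, Mllt3, a subunit of transcription elongation complexes that supports stem cell self-renewal, read 7.99, 8.19 and 7.98 in WT and 9.79, 9.63 and 9.34 in KO (difference 1.53, limma adjusted p = 0.0566). Hoxb5, a homeobox gene used to mark long-term stem cells, read 5.30, 4.89 and 5.58 against 7.84, 7.52 and 7.12 (2.24, 0.0566). Mecom, a zinc finger regulator needed for stem cell maintenance, read 5.65, 6.53 and 7.12 against 8.41, 8.51 and 8.20 (1.94, 0.137). In these 3 genes the lowest KO array exceeded the highest WT array by over 1. Rdh10, which oxidises retinol on the path to retinoic acid, differed by 2.42 (limma adjusted p = 0.0769).

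Several genes of surface proteins were among the 30. Fcer1g, the ITAM-bearing Fc receptor gamma chain, read 6.79, 6.84 and 6.41 in WT and 8.83, 8.22 and 8.40 in KO (difference 1.80, limma adjusted p = 0.0566). Jam2 and Pecam1, adhesion molecules of endothelial junctions that stem cells also carry, differed by 1.89 and 1.97, and Pecam1 read 4.85, 5.87 and 5.76 in WT and 7.30, 7.63 and 7.45 in KO (limma adjusted p = 0.133). Ackr1, the Duffy antigen and a scavenging chemokine receptor, differed by 1.83, and Klrb1c, a lectin-like receptor of NK cells, by 2.18. Tfr2, an iron-sensing transferrin receptor, differed by 1.38. C4b, a complement component, differed by 1.92, and its gap was 2.22 without KO replicate 3 (limma adjusted p = 0.0475).

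Metabolic and signalling genes completed the upper end. Hk3, a hexokinase of myeloid cells, read 4.53, 5.08 and 4.49 in WT and 6.20, 6.54 and 6.66 in KO (difference 1.77, limma adjusted p = 0.0566). Gatm, the first enzyme of creatine synthesis, read 5.28, 4.70 and 4.85 against 6.87, 6.52 and 6.60 (1.72, 0.0566). Its Het arrays averaged 4.58, below WT. B4galt6, which makes lactosylceramide, read 4.19, 4.59 and 4.68 in WT and 7.26, 7.21 and 5.59 in KO, with replicate 3 nearest to WT. Its limma adjusted p was 0.15 with all arrays and 0.00906 without that array. Phka2, a regulatory subunit of phosphorylase kinase, differed by 1.96, the p38-gamma kinase gene Mapk12 by 1.43, the Ras-family exchange factor gene Rasgef1b by 2.20, and the co-chaperone gene Sgta by 1.60. The contractile protein genes Myom1 and Smtnl1 differed by 2.34 and 1.93, and the orphan cytochrome Cyp20a1 by 1.72.

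The 20 named genes lower in KO with the smallest p differed by -2.04 to -0.80, with limma adjusted p from 0.0432 to 0.361, and only Ctla2a passed. Plxdc2, a plexin-domain transmembrane protein, read 8.31, 8.37 and 7.28 in WT and 6.44, 6.30 and 5.09 in KO (difference -2.04, limma adjusted p = 0.197). Vim, the intermediate filament vimentin, read 8.98, 8.76 and 8.62 against 7.94, 7.56 and 7.02 (-1.28, 0.201). Cdk6, a cyclin D-dependent kinase that sets how fast stem cells leave quiescence, read 9.04, 8.69 and 9.30 against 7.97, 7.91 and 8.07 (-1.03, 0.237). In each of the 3 genes every KO array was below every WT array, and Cdk6 varied by less than 0.2 within KO. Gpr65, a proton-sensing receptor, differed by -1.27, Aldh1a1, which makes retinoic acid, by -1.18, and Nkg7, a cytotoxic granule protein, by -1.75. The protease-activated receptor gene F2rl2 differed by -1.18 and the acute phase gene Orm1 by -0.90. Gemin6 of the SMN complex (-1.34), Casp8ap2 of histone mRNA processing (-1.23), the podosome scaffold gene Sh3pxd2a (-0.97) and the GTPase gene Rhou (-0.80) were also in this set. In 7 of the 20 the KO mean was at or below 4.22, and the rest of the set, Pdzd11, Mrgpra2a, Wdfy1, Parm1, Isoc1, D17H6S53E and Unc93a, lay between -1.47 and -1.0.

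Gene families were then described by their counts and medians beside those of all tested genes. No family test was run, and with 7 calls in all, no list held more than a few. A first family was that of the guanylate-binding proteins (GBP) and immunity-related GTPases (IRG), interferon-induced enzymes that attack the vacuoles of intracellular pathogens. All 11 tested members had a higher mean in KO, against 45.4% of all genes. Their median difference was 0.80, where the median of all genes was -0.04 and that of the 25% of genes at their level was 0.12. At unadjusted p under 0.05, 5 of the 11 were higher (45.5%, against 5.4% of all genes) and 0 lower. The groups were separated upward in 4 (36.4%, against 6.51% of all genes). None of the 11 passed the adjusted threshold.

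The promoters of this family are shown because its members share a sequence known to respond to interferon. A RefSeq window of the GRCm38.p6 assembly, reaching 250 bases before and 50 after a start site, was at hand for 6 of the 11 genes. The core of the interferon-stimulated response element, GAAA followed by any 2 bases and a second GAAA, was searched on both strands. It occurred in the windows of all 6 genes (Gbp3, Gbp5, Gbp7, Igtp, Irgm1 and Irgm2), against 3.51% of 12928 tested genes with a window and 3.44% of all 32851 windows. The 250 bases before the start are printed 5' to 3' on the gene's strand for the 4 members with p under 0.05 that had a window, and the capitals mark that core or its reverse complement.
Irgm2, chr11:58214727-58214976, plus strand: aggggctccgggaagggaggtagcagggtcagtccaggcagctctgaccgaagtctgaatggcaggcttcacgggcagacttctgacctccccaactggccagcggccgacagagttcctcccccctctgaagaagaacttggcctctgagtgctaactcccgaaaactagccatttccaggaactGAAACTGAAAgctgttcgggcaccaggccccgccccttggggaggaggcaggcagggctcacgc
Gbp7, chr3:142530086-142530335, plus strand: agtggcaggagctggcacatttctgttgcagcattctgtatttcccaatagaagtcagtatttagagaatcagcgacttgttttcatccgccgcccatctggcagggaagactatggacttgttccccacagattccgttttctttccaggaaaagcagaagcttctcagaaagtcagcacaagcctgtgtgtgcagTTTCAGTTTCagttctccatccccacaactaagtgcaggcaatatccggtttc
Gbp5, chr3:142496684-142496933, plus strand: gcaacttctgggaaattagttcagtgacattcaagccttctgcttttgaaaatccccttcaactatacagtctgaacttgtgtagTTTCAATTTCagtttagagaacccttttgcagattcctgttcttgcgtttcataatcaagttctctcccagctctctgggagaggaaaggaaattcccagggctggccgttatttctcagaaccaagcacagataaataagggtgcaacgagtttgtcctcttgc
Igtp, chr11:58199306-58199555, plus strand: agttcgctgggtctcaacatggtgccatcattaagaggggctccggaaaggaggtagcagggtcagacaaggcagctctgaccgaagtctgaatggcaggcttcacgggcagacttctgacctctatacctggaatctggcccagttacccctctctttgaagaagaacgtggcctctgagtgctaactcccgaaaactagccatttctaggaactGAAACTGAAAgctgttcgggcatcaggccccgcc
Counted from the start site, the match began at base -64 in Irgm2, -53 in Gbp7, -165 in Gbp5 and -34 in Igtp. Irgm2 and Igtp lie near each other on chromosome 11 and shared an identical stretch of 55 bases in these windows, so they are not independent examples. A match is a stretch of letters and not a measured site.

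Within the family, Gbp9 had the widest gap. It read 5.12, 3.59 and 4.07 in WT and 6.08, 6.22 and 5.59 in KO (difference 1.70, SE 0.413, limma adjusted p = 0.296). Irgm2 read 6.24, 6.77 and 8.10 in WT and 8.97, 8.35 and 8.19 in KO (1.47, SE 0.470, 0.486). Its WT replicate 3 was within 0.1 of the lowest KO array. Gbp7 read 5.57, 7.34 and 6.87 against 7.97, 7.62 and 7.49 (1.10), with WT replicate 1 well under the other two WT arrays. Igtp read 7.41, 6.93 and 7.12 against 8.43, 7.55 and 7.95 (0.82). Gbp5 overlapped between groups, at 3.69, 5.25 and 4.74 against 6.07, 5.62 and 5.16 (1.06).

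The other 6 members had p above 0.05. Iigp1, Gbp3, Gbp8 and Irgm1 differed by 0.80, 0.72, 0.69 and 0.68, and Gbp10 and Gbp4 by 0.29 and 0.10. Gbp8 ran from 3.92 to 8.09 within WT alone. Averaged over the 11 genes, the WT arrays read 5.61, 6.21 and 5.72, the Het arrays 6.19, 5.56 and 6.56, and the KO arrays 7.22, 6.60 and 6.30. Every KO array was thus above every WT array, with KO replicate 3 only just so. The median ranged from 0.43 with array spread in the model to 1.33 without WT replicate 2. Of the 11 genes, 10 were higher and 1 lower without KO replicate 3, and likewise after a further quantile normalization or with array spread in the model. In the latter, 2 rather than 5 had p under 0.05. Members resemble one another in sequence, and how far a probe set of 1 member also binds transcripts of another was not tested.

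**Figure D3:**
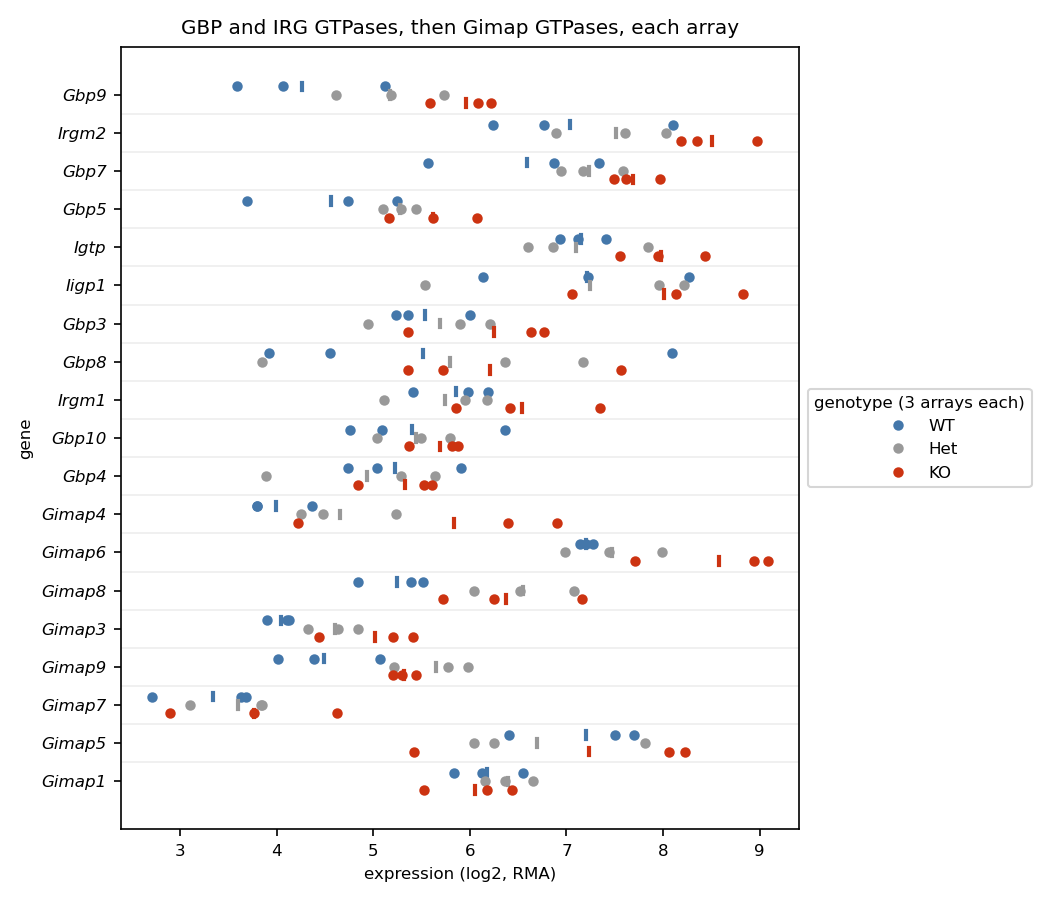
Expression (log2 RMA, horizontal axis) of each GBP and IRG GTPase and then each Gimap GTPase on every WT (blue), Het (grey) and KO (red) array; points are arrays and short bars genotype means (n = 3). KO means lie to the right of WT means in all 11 GBP and IRG genes and in 7 of 8 Gimap genes, with wide overlap in Gbp8, Gimap5 and Gimap7.

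The regulators upstream of this family were measured as well. Of 7 Irf factors, 5 had a higher mean in KO (median 0.68) and 3 had p under 0.05. Irf2 read 6.98, 7.46 and 7.77 in WT and 8.24, 8.09 and 8.04 in KO (difference 0.72), and Irf9 read 6.01, 5.46 and 5.69 against 6.27, 6.73 and 6.20 (0.68). Irf1, named after its values were seen, differed by 0.69. Irf7, which amplifies type I interferon, went the other way at -0.36. The list's median was 0.11 without KO replicate 3 and -0.06 without that array and WT replicate 1 together.

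A wider list of interferon-induced genes was read in the same way. Of 38 RNA sensors and interferon-stimulated genes, 20 were higher and 18 lower, with a median of 0.13. At unadjusted p under 0.05, 6 were higher (15.8%, against 5.4% of all genes) and 1 lower (2.63%, against 2.81%). Gbp5, Gbp7, Irf1 and Irf9, already described, were 4 of the 6 higher. Ifi27 read 9.05, 8.32 and 8.62 in WT and 7.64, 8.24 and 8.00 in KO (-0.70), the single lower member. Of 30 chemokine ligands, 21 were lower, with Cxcl9 and Cxcl11, both induced by interferon-gamma, at -1.62 and -0.70. Cxcl9 read 6.11, 4.22 and 5.66 in WT and 3.92, 4.24 and 2.96 in KO. The time between the last poly(I:C) injection and the sort is not stated by the labels, and its part was not tested.

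The Gimap family, GTPases of immune-associated proteins that are known for their role in lymphocyte survival, was the next. Of 8 members, 7 had a higher mean in KO, with a median of 0.90 that stayed between 0.75 and 1.19 under all alternatives. At unadjusted p under 0.05, 5 were higher and 0 lower, and 4 were separated upward. Gimap6 read 7.27, 7.20 and 7.14 in WT and 9.09, 8.94 and 7.71 in KO (difference 1.38, SE 0.380, limma adjusted p = 0.407). Gimap3 read 3.90, 4.13 and 4.11 against 5.20, 5.41 and 4.44 (0.97). In both genes the WT arrays lay within 0.3 of each other and KO replicate 3 was the KO array nearest to them. Gimap4 read 6.90 and 6.40 in KO replicates 1 and 2 and 4.22 in replicate 3, against 3.80, 4.37 and 3.80 in WT. With array spread in the model 6 of the 8 were higher and 2 lower, and 3 had p under 0.05, as many as without WT replicate 1. Gimap8 and Gimap9 differed by 1.13 and 0.82. Gimap1 was the exception at -0.12, and Gimap5 differed by 0.03 with KO replicate 3 at 5.42, under every WT array. Averaged over the family, KO arrays read 6.53, 6.17 and 5.37, so that replicate 3 lay inside the WT range of 4.99 to 5.48.

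Cytoskeletal and signalling genes made up the rest of the named higher set. Net1, a guanine nucleotide exchange factor, read 5.48, 5.13 and 6.42 in WT and 8.27, 7.40 and 8.31 in KO (difference 2.32, limma adjusted p = 0.137). Fgd4, an exchange factor for Cdc42, read 3.44, 3.65 and 3.83 against 5.54, 5.05 and 5.78 (1.82, 0.0716), from absent-range levels in WT. Bcr, the breakpoint cluster region gene, read 4.41, 4.50 and 5.17 against 6.18, 6.15 and 6.79 (1.68, 0.137). All 3 genes were separated by about 1 or more. Pkn3, a protein kinase of the PKN family, read 4.76, 4.38 and 4.02 in WT and 7.23, 7.86 and 7.08 in KO (difference 3.0, limma adjusted p = 0.0716). Of 62 intermediate filament and tubulin genes, 46 were lower (median -0.14), Vim among them, while Krt18 and Krt7 differed by 1.28 and 0.66.

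Genes that define stem cell identity were mostly higher in KO. Of 29 tested, 26 had a higher mean (median 0.63, against 0.16 for the 25% of genes at their level). At unadjusted p under 0.05, 12 were higher (41.4%, against 5.4% of all genes) and 0 lower. Averaged over the list, the WT arrays read 5.98, 6.83 and 6.77 and the KO arrays 7.42, 7.40 and 6.97. WT replicate 1 therefore stood below the other WT arrays by about 0.8, and the gap between those and KO replicate 3 was under 0.3. The median was 0.39 without WT replicate 1, 0.35 with array spread in the model and 0.98 without KO replicate 3. At unadjusted p under 0.05, 5 were higher and 0 lower without WT replicate 1, and 6 higher and 1 lower with array spread in the model. Hoxb5 and Mllt3, described above, led the list, which also holds Mecom. The list was chosen with earlier results of these data known, so its share is a description only. Ifitm1 at -0.85 and Ndn at -0.31 went the other way.

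Endothelial genes were listed to check for vessel cells. Of 18 tested, 10 were higher and 8 lower, with 5 higher and 0 lower at unadjusted p under 0.05 and a median of 0.55. Sox18 and Pecam1 led. Kdr, the VEGF receptor, read 3.53, 3.94 and 3.78 in WT and 5.85, 4.90 and 4.23 in KO (difference 1.24), and Tek, the angiopoietin receptor, named after its values were seen, read 3.28, 4.64 and 5.26 against 6.50, 5.72 and 6.03 (1.69). Cdh5, Cldn5 and Stab2, also named after their values were seen, stayed at or near the absent range in both groups. Over the 6 arrays Cdh5 read 3.59 to 4.46, Cldn5 3.40 to 4.15 and Stab2 3.18 to 3.97. These picked genes do not stand for the list, and the part of vessel cells was not tested. Plvap differed by -0.47 and Stab1 by -0.27. Sox17, another SoxF gene of the list, read 4.57, 4.12 and 4.24 in WT and 4.16, 3.80 and 4.04 in KO, and did not pass. The list's median was 0.23 with array spread in the model and 0.26 without WT replicate 1.

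Adhesion molecules showed single members rather than whole families. Of 10 selectins, sialomucins and ligands, 6 were higher (median 0.51). Cd34, a sialomucin of progenitors and endothelium, read 7.79, 8.07 and 7.95 in WT and 10.09, 9.50 and 9.08 in KO (difference 1.62, SE 0.336, limma adjusted p = 0.206), with every KO array at least 1 above every WT array. Selp, the gene of P-selectin, read 7.64, 7.40 and 6.09 against 8.84, 8.92 and 7.92 (1.52). Of 60 junction, cadherin and claudin genes, 42 were lower (median -0.16, against -0.12 for the 25% of genes at their level). Pecam1 and Jam2, however, were near the top of all genes. Among 25 integrins, Itga5 (1.09) and Itgam (1.21) were higher, and Itgb2 (-0.99) and Itgal (-0.47) lower, each at unadjusted p under 0.05. Cd151 of the tetraspanins differed by 1.31.

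**Figure D4:**
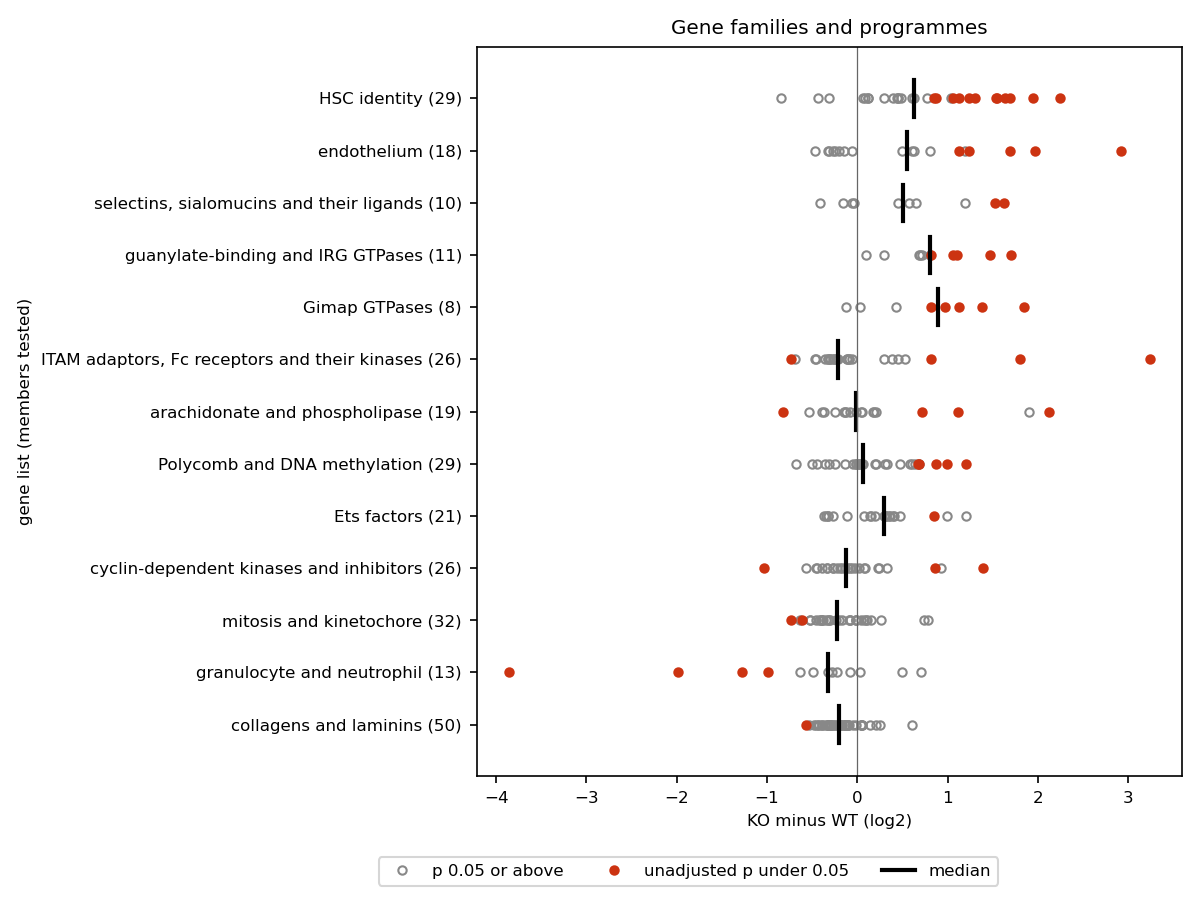
Difference between KO and WT (log2, horizontal axis) for each tested member of 13 gene lists; filled red points have unadjusted p under 0.05, open points do not, and black bars are list medians. Medians of the Gimap, GBP and IRG, HSC identity and endothelium lists lie right of 0.5, while those of granulocyte, mitosis, collagen and ITAM lists lie left of 0.

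Immune receptors and their adaptors were read as separate lists. Tyrobp and Fcer1g, the adaptors that carry the ITAM signalling motif, led a list of 26 adaptors, Fc receptors and kinases in which 19 members had a lower mean (median -0.21, against -0.12 for the 25% of genes at their level). Fcgr2b, the inhibitory Fc receptor, read 5.01, 5.37 and 4.62 in WT and 4.33, 4.50 and 3.97 in KO (difference -0.73), and Zap70 differed by -0.46. Of 9 paired immunoglobulin-like receptors, among which are partners of these adaptors, 8 were lower (median -0.34), with Cd300c at -0.78 and Cd300a the single higher member at 0.40. Of 21 killer cell lectin-like receptors, 16 were under the filter, and of the 5 tested only Klrb1c had p under 0.05. Of 8 Toll-like receptors none had p under 0.05.

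Lipid mediator genes could be followed from enzyme to receptor. Leukotriene A4 is made by 5-lipoxygenase and conjugated to glutathione by leukotriene C4 synthase, and CYSLTR2 binds the products. Alox5, the lipoxygenase gene, read 5.72, 5.42 and 6.03 in WT and 7.19, 7.04 and 9.30 in KO (difference 2.12, SE 0.536, limma adjusted p = 0.312). All KO arrays were above all WT arrays, and KO replicate 3 was more than 2 above the other KO arrays. Without it the Alox5 difference was 1.39. Ltc4s, the synthase gene, was lower, at 4.86, 4.51 and 5.75 against 3.98, 4.29 and 4.39 (-0.82). Mgst2, a microsomal enzyme able to make the same product, read 4.83, 5.28 and 5.67 against 6.13, 6.78 and 6.31 (1.15). Of 19 arachidonate and phospholipase genes, 9 were higher and 10 lower. Of 17 lipid mediator receptors, Cysltr2 alone of the higher members had p under 0.05, and S1pr5, a sphingosine phosphate receptor, differed by -0.62. Cysltr1, the other leukotriene receptor, was below the filter at 2.01 to 2.75 on the 6 arrays.

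Cytokine and guidance receptors gave further single genes. Il6st, the shared signalling chain of the interleukin 6 family, read 5.90, 5.89 and 6.72 in WT and 7.25, 7.13 and 6.98 in KO (difference 0.95), and Ifngr1 7.06, 7.0 and 7.01 against 7.86, 7.44 and 7.69 (0.64). Tnfrsf1b, the gene of TNF receptor 2, read 5.0, 4.70 and 4.96 against 6.77, 6.24 and 5.62 (1.32), whereas Tnfrsf21 and Relt differed by -0.79 and -0.61. Neo1, a netrin and RGM receptor, read 4.24, 5.01 and 4.74 against 8.08, 7.66 and 5.63 (2.46, SE 0.551, limma adjusted p = 0.259), with KO replicate 3 the nearest to WT. Insr, the insulin receptor gene, read 5.30, 4.99 and 5.39 against 6.70, 6.67 and 6.15 (1.28). P2ry13, a receptor for ADP, differed by 1.58 and Adgrl4, an adhesion receptor of endothelium, by 1.07 with WT arrays at 10.04 to 10.21 and KO arrays at 11.03 to 11.32. These genes were separated between groups, and none passed the adjusted threshold. Over the 587 genes of 27 receptor and adhesion lists, 37.8% were higher and 60.6% lower (median -0.10), at a median level of 4.40 in the lower part of the range.

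Transcription factor families were close to balance. Over 386 genes of 18 lists, 47.7% were higher and 50.8% lower, against 45.4% and 54.4% of all genes. At unadjusted p under 0.05, 29 were higher (7.51%) and 8 lower (2.07%), against 5.4% and 2.81% of all genes. Their median was -0.01 at a median level of 5.12, where the corresponding 25% of all genes had a median of 0.12. Of 32 Hox genes, Hoxb5 and Hoxb3 (3.95, 4.86 and 5.46 in WT and 6.91, 5.61 and 6.26 in KO, 1.5) were higher while Hoxd8 and Hoxd10 differed by -0.68 and -0.62. Of 21 Ets factors, 15 were higher, Erg at 7.60, 8.65 and 8.84 against 9.56, 9.12 and 8.95 (0.85), but the list's median of 0.29 became -0.03 without WT replicate 1. Ikzf1 and Mef2c, lymphoid regulators, differed by 0.79 and 0.73, and Foxo1 by -0.48. Lmo2 and Lyl1 differed by 0.87 and 0.81. Klf8 and Klf12 differed by 1.32 and 1.08, while 17 of 24 Klf and Sp factors had a lower mean.

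Chromatin genes included the complexes through which BCL11A acts. Of 40 NuRD, Sin3 and SWI/SNF subunits, 24 were higher and 15 lower (median 0.06, but -0.09 after a further quantile normalization), with Smarcc2 and Sin3a at 0.64 and 0.63 and Bcl7a and Smarcd2 at -0.72 and -0.57. Of 29 Polycomb and DNA methylation genes, 19 were higher. At unadjusted p under 0.05, 5 were higher (17.2%, against 5.4% of all genes) and 0 lower. Those counts were 0 and 1 without WT replicate 1 and with array spread in the model, and 1 and 1 after a further quantile normalization. Ezh1, the methyltransferase of quiescent cells, read 4.88, 6.75 and 5.17 in WT and 7.24, 6.88 and 6.29 in KO (difference 1.20), overlapping between groups. Bmi1 and Tet1 differed by -0.68 and -0.45. Of 27 histone genes, 14 were higher and 13 lower.

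The core motif TGACCA, which BCL11A is known to bind in globin promoters, was looked for in the same windows on both strands. It occurred in 13.5% of 12928 tested genes with a window. Among the 31 named higher genes, 23 had a window and 8 of these held it (Aoah, Fcer1g, Hk3, Klrb1c, Mapk12, Mllt3, Myom1 and Phka2). Of the 20 named lower genes, 15 had a window and 0 held it. A gene can have several windows, the genes were chosen by their p, and the shares are a description. The 250 bases before the start are printed for Aoah, a gene that rose, and Mllt3, the first named gene by p among those that did not pass, with TGACCA or its reverse complement in capitals.
Aoah, chr13:20793863-20794112, plus strand: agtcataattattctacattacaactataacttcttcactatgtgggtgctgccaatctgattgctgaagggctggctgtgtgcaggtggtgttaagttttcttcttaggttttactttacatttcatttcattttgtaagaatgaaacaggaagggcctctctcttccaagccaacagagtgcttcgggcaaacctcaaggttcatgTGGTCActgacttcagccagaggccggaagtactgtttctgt
Mllt3, chr4:87806324-87806573, minus strand: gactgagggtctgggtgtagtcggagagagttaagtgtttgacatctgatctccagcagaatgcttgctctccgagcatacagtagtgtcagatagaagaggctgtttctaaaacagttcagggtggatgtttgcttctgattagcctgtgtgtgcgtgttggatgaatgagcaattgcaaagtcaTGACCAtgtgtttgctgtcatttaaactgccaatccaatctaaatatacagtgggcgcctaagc
The match began at base -42 from the start site in Aoah and at base -64 in the second of the Mllt3 windows.

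Stress functions, the second concern of the comparison, were spread over 19 lists with 479 different genes. None of these genes passed the adjusted threshold. Of them, 57.4% had a higher mean in KO, against 59.2% of the 25% of all genes at their median level of 5.88. The median difference was 0.09, where that 25% had a median of 0.12. At unadjusted p under 0.05, 36 were higher (7.52%) and 3 lower (0.626%), against 5.4% and 2.81% of all genes. In the 25% at their level, 346 of 4159 genes were higher and 85 lower. In 14 of the 19 lists the median was above 0, and most of the lists lay at levels where all genes had a median above 0 too. Medians ran from -0.15 for senescence genes to 0.33 for autophagy genes.

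Protein folding genes showed no common shift. Of 14 HSP70 and HSP110 chaperones, 9 were higher and 5 lower (median 0.05). The heat-inducible Hspa1b varied widely, at 3.12, 4.07 and 5.71 in WT and 5.33, 9.44 and 6.47 in KO (difference 2.78, SE 1.42, unadjusted p = 0.0786), and its Het arrays averaged 8.10, above KO. Of 38 HSP40 co-chaperones, 20 were higher and 18 lower, Dnajc15 at 1.22 and Dnajc22 at -0.59. Of 25 small heat shock, HSP90 and chaperonin genes, 12 were higher and 13 lower and none had p under 0.05. Of 26 genes of the unfolded protein response of the endoplasmic reticulum, 17 were higher and 9 lower (median 0.09) and again none had p under 0.05. Hspa5, its main chaperone, read 9.21, 8.46 and 8.60 in WT and 8.24, 8.49 and 8.73 in KO, and Hyou1 differed by -0.41. The medians of all 4 lists reached or crossed 0 under at least 1 alternative.

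The integrated stress response, in which ATF4 raises amino acid metabolism genes, had 17 of 25 genes higher (median 0.22, between 0.11 and 0.45 under the alternatives). Shmt2, a mitochondrial serine hydroxymethyltransferase, read 5.50, 6.84 and 7.16 in WT and 7.98, 7.35 and 7.82 in KO (difference 1.22), and Ppp1r15a, which restores translation, 6.40, 7.02 and 6.69 against 7.12, 7.99 and 7.35 (0.78). The factors themselves were not higher: Atf4 differed by -0.44 and Atf3 by -0.48.

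Of 26 oxidative stress genes, 13 were higher and 13 lower (median 0.02). At unadjusted p under 0.05, 4 were higher (15.4%, against 5.4% of all genes) and 0 lower. Without KO replicate 3 the list had 18 higher and 8 lower (median 0.32), and without that array and WT replicate 1 together 16 higher and 9 lower (median 0.19). Sesn3, a FOXO-induced sestrin that restrains mTORC1 and oxidants, read 5.12, 5.23 and 6.40 in WT and 7.16, 7.16 and 8.01 in KO (difference 1.86, SE 0.414, limma adjusted p = 0.259). Sesn1, a p53-induced sestrin, read 6.42, 6.82 and 6.30 against 7.73, 7.37 and 7.22 (0.93). Both sestrins were separated between groups. Prdx3, a mitochondrial peroxiredoxin named after its values were seen, differed by 1.57. Txn1, the gene of thioredoxin, went the other way at -0.47. Of 19 glutathione S-transferases, 9 were higher and 10 lower, and Mgst2 alone had p under 0.05. Their median of -0.05 was 0.29 without KO replicate 3, with 12 higher and 7 lower.

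DNA damage and p53 genes differed little. Of 34 damage response and repair genes, 24 were higher (median 0.15, between 0.01 and 0.24), with Xrcc4 at 0.91 the single member with p under 0.05. Of 22 p53 targets, 11 were higher and 11 lower. Sesn1 was the single one with p under 0.05, while Cdkn1a, the gene of p21, read 5.15, 5.65 and 4.87 in WT and 5.26, 4.26 and 4.43 in KO (difference -0.57). Of 16 senescence and secretory genes, 13 had a lower mean and none had p under 0.05, Cdkn2a at 4.98, 5.25 and 4.42 against 4.36, 4.42 and 4.70.

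Of 22 hypoxia targets, 8 were higher and 14 lower, with a median of -0.08 that became 0.00 with arrays centred on their medians. Epas1, the gene of HIF-2-alpha, read 3.96, 3.63 and 3.51 in WT, in the absent range, and 4.67, 4.98 and 4.80 in KO (difference 1.12, SE 0.242, limma adjusted p = 0.237), and Ero1a 5.63, 5.57 and 7.03 against 7.35, 7.16 and 7.35 (1.21). Both were separated between groups. Ndrg1 ranged from 4.47 to 7.99 within KO and differed by -1.24, or by -0.15 without KO replicate 3.

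Immediate early genes, which respond within minutes to stimulation or to cell handling, had 17 of 27 members higher and a median of 0.09 that crossed 0 under 5 alternatives. Jund read 6.65, 6.68 and 6.70 in WT and 7.95, 9.40 and 8.28 in KO (difference 1.87, SE 0.424, limma adjusted p = 0.259). Fosb read 3.96, 4.74 and 4.46 against 5.15, 7.89 and 5.65 (1.84). Both were highest in KO replicate 2, the array that was also highest for Hspa1b. Atf3 and Btg1 differed by -0.48 and -0.69. Of 22 dual-specificity phosphatases, 13 were higher, with Dusp23 at 0.96 and Dusp8 at -0.47.

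Inflammatory signalling gave small shifts. Of 25 NF-kB pathway and feedback genes, 19 were higher (median 0.17, against 0.12 for the 25% of genes at their level). The list's median was 0.40 without KO replicate 3 and -0.03 with array spread in the model. Ikbkb, the kinase that releases NF-kB, read 6.06, 6.09 and 6.18 in WT and 6.86, 6.78 and 7.29 in KO (difference 0.87, SE 0.248), whereas Tnfaip3, which shuts the pathway down, read 5.45, 5.41 and 5.20 against 4.78, 4.70 and 5.04 (-0.51). Both pairs of groups were separated. Of 19 inflammasome and cell death sensors, 4 were higher at unadjusted p under 0.05 (21.1%, against 5.4% of all genes) and 0 lower. Those counts were 0 and 1 with array spread in the model, and 2 and 1 after a further quantile normalization. The list's median of 0.15 was -0.06 without KO replicate 1. Naip6 differed by 1.09 and Nod1 by 0.72. Pycard, the inflammasome adaptor, differed by -0.87 with KO replicate 3 at 4.66, and by -0.28 without that array. Of 17 genes that handle lipopolysaccharide, 10 were higher (median 0.18, and -0.00 with array spread in the model), and after Aoah the next by p was Tirap at 0.51. Ly86 and Acod1 differed by -1.0 and -0.43.

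With all arrays, autophagy and lysosome genes had the highest medians of the stress lists, an order that changed without single arrays. Without WT replicate 1 the ATF4 list was higher (0.28, against 0.18 for lysosomal and 0.14 for autophagy genes), and without KO replicate 3 the inflammasome list was (0.44, against 0.30 and 0.39). Of 29 autophagy core genes, 25 had a higher mean in KO (median 0.33, between 0.12 and 0.42 under the alternatives), against 0.12 for the 25% of genes at their level. Single differences were small: Atg2a read 4.77, 5.45 and 4.87 in WT and 5.52, 5.57 and 6.08 in KO (0.69), and Rb1cc1 7.15, 6.83 and 7.16 against 7.81, 7.43 and 7.40 (0.50). Averaged over the list, WT arrays read 5.37, 5.94 and 6.02 and KO arrays 6.22, 6.10 and 5.91. The low value of WT replicate 1 set much of that gap. Of 30 lysosomal genes, 21 were higher (median 0.28, between 0.15 and 0.37), with Ids, iduronate sulfatase, at 4.30, 4.54 and 4.67 against 5.30, 5.46 and 5.13 (0.79) and Npc2, a cholesterol carrier, at 7.64, 8.77 and 7.98 against 7.19, 7.04 and 7.63 (-0.84). Of 37 proteasome subunits, 22 were lower (median -0.11) at a level where the corresponding 25% of all genes had a median of 0.16, and the median was 0.03 without WT replicate 3 and 0.05 without KO replicate 3.

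**Figure D5:**
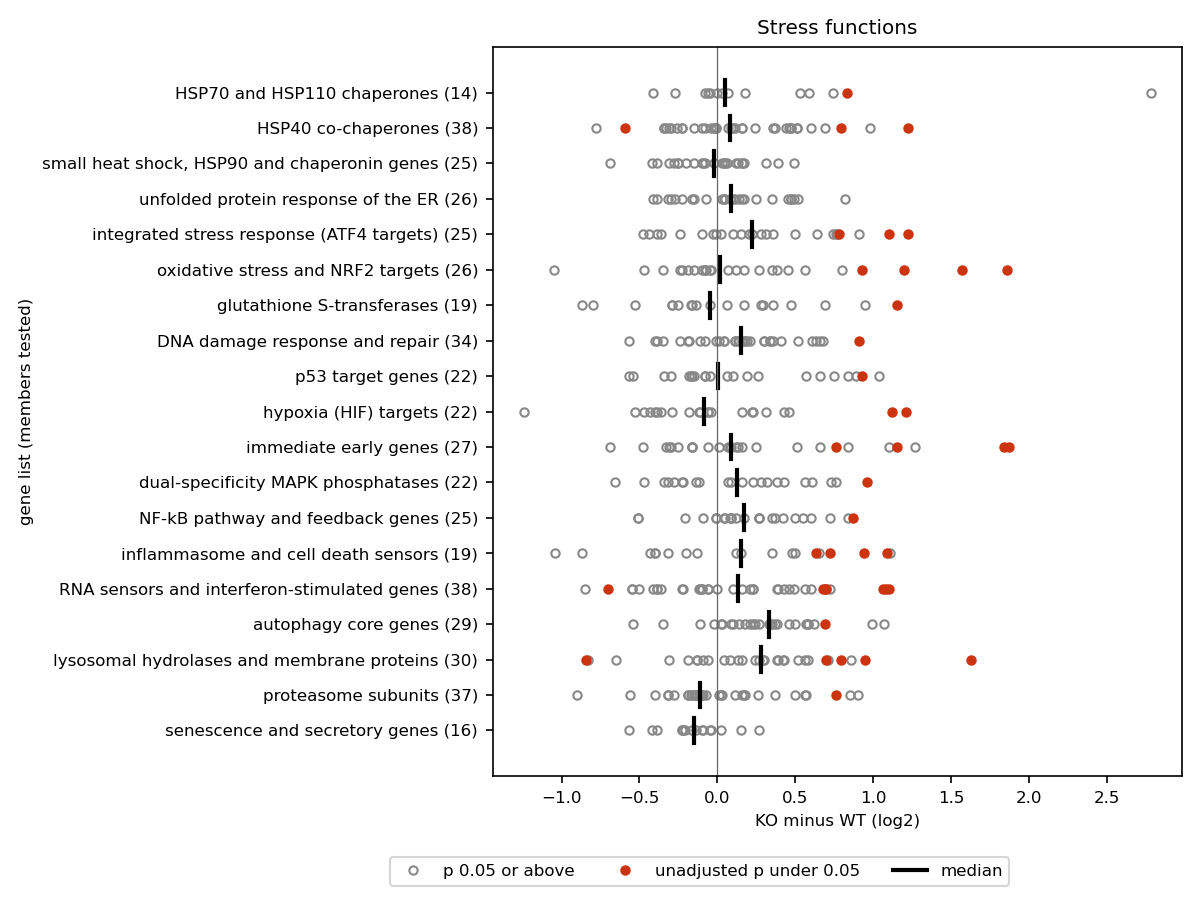
Difference between KO and WT (log2, horizontal axis) for each tested member of the 19 stress lists; filled red points have unadjusted p under 0.05, open points do not, and black bars are list medians. Medians stay between -0.15 and 0.33, and the far right points are Hspa1b, Sesn3, Jund and Fosb.

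Energy and biosynthesis genes were close to the balance of all genes, and lower than genes at their level. Over 436 genes of 12 metabolic lists, 43.3% were higher and 54.1% lower, against 45.4% and 54.4% of all genes. Their median was -0.05 at a median level of 5.90. The corresponding 25% of all genes had a median of 0.12, with 59.2% higher. Of 22 glycolysis genes, 15 were higher (median 0.21, against 0.12 for the 25% of genes at their level), and the median was 0.08 without WT replicate 1 or KO replicate 1 and 0.04 with array spread in the model. Hk3 and Pkm were among them, Pkm at 7.69, 8.91 and 8.98 in WT and 9.35, 9.27 and 9.21 in KO (0.75, and 0.33 without WT replicate 1). Of 77 respiratory chain and ATP synthase subunits, 50 were lower (median -0.12, against 0.16 for the 25% of genes at their level), a median that became 0.01 without WT replicate 3, with Cox7a2 at -0.75 and Ndufs4 at 0.97. Cytosolic ribosomal genes were 33 higher and 32 lower, and mitochondrial ones 36 and 35. Abca1 and Abca4, lipid transporters, read 4.36, 4.37 and 4.62 against 5.16, 5.30 and 5.37 (0.83) and 4.01, 3.94 and 4.15 against 5.30, 5.38 and 4.81 (1.13), separated in both cases. Slc1a5, the glutamine transporter, ran from 7.74 to 10.20 in WT and from 5.77 to 7.55 in KO (-1.78), and Slc3a2, a transporter heavy chain, differed by 1.10.

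Cell cycle genes were read by phase. Of 32 genes of mitosis and the kinetochore, 24 had a lower mean in KO (median -0.22, against 0.16 for the 25% of genes at their level). Cenpa, the centromeric histone, read 6.81, 6.73 and 6.96 in WT and 6.39, 6.02 and 6.27 in KO (difference -0.61), and Aurkb 7.17, 6.55 and 6.58 against 5.75, 5.75 and 6.60 (-0.73). The list's median was 0.02 without WT replicate 3, whose mean over the list (7.01) was the highest of the 6 arrays, and -0.03 with sex in the model, where 15 were higher and 17 lower. Of 31 replication genes, 17 were higher and 14 lower. Of 26 cyclin-dependent kinases and inhibitors, 17 were lower. Cdk6 led those, while Cdk14 read 3.04, 2.95 and 3.55 in WT and 4.23, 5.07 and 4.40 in KO (1.39). Among 14 Bcl2 family genes, Bcl2 read 8.48, 8.19 and 8.13 against 7.61, 7.90 and 6.90 (-0.80), the single member with p under 0.05.

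Most secreted proteins and proteases had lower means. Over 264 genes of 11 lists, 33.3% were higher and 65.5% lower, with a median of -0.14 at a median level of 4.33, where the corresponding 25% of all genes had a median of -0.12. The cystatins, Ctla2 and stefins had all 10 tested members lower (median -0.47, against -0.12 for the 25% of genes at their level), the range reaching from -1.81 for Ctla2a to -0.03, and Ctla2a alone had p under 0.05. The median was -0.29 without WT replicate 2, and 1 of the 10 was higher without KO replicate 3 or with array spread in the model. Of their targets, the cathepsins, 8 were higher and 5 lower, Ctsf at 0.92 and Ctsh at -0.56. Of 25 serpins, 18 were lower (median -0.27, against -0.19 for the 25% of genes at their level, and 0.01 with array spread in the model). Serpinb1a read 6.83, 6.10 and 6.32 in WT and 5.19, 5.81 and 5.04 in KO (difference -1.07). Of 50 collagens and laminins, 42 were lower (median -0.20, against -0.12 for the 25% of genes at their level), and 1 had p under 0.05. Of 51 metalloproteases and Timps, 40 were lower (median -0.16, against -0.19 for the 25% of genes at their level). Mmp2 differed by -0.66 and Adam10 by 0.64. Coagulation genes included F10 and Vwf, the latter at 5.12, 5.55 and 5.99 against 7.56, 7.19 and 6.57 (1.55), with 14 of 25 genes lower. Complement genes were 8 higher and 9 lower.

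Markers of the sort gate and of other cell types were read from the same arrays. Kit read 8.75, 9.25 and 9.47 in WT and 9.37, 10.01 and 9.27 in KO, and Slamf1, the gene of CD150, read 4.64, 4.67 and 6.71 against 7.94, 6.53 and 6.43 (difference 1.63, unadjusted p = 0.0179), overlapping between groups. Cd48 lay between 3.63 and 4.83 on the 6 arrays. Flt3 read 4.99, 3.99 and 5.36 in WT and 3.55, 4.03 and 3.57 in KO (-1.06). Kit was strongly expressed on every array and Cd48 was at or near the absent range. Slamf1, whose product the gate selects for, was close to that range on WT replicates 1 and 2, and Flt3, whose product it selects against, was above it on WT replicates 1 and 3. Because a sample holds many sorted cells, more cells of a type and more RNA per cell cannot be told apart in any difference given here.

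Granulocyte transcripts were read as a sign of other cells. Of 13 tested, 10 had a lower mean (median -0.33, between -0.76 and -0.21 under the alternatives). At unadjusted p under 0.05, 0 were higher and 4 lower (30.8%, against 2.81% of all genes). Those counts were 0 and 1 without WT replicate 1, and also with array spread or with sex in the model. Without KO replicate 3 they were 2 and 3. The list averaged 5.79, 5.48 and 5.06 on WT and 4.83, 4.84 and 4.59 on KO arrays. S100a8 read 8.97, 8.59 and 8.42 against 5.34, 6.74 and 2.31 (difference -3.86, SE 1.07, limma adjusted p = 0.41), and S100a9 read 9.16, 8.40 and 8.06 against 6.12, 7.22 and 6.30 (-1.99). Of 18 monocyte and macrophage markers, 12 were lower, with a median of -0.14 that became 0.05 with array spread in the model. Lyz2 read 9.22, 9.20 and 9.46 against 8.41, 8.80 and 7.58 (-1.03), whereas Cd68 and Itgam differed by 1.63 and 1.21. Tyrobp, which is abundant in myeloid cells, rose on the same arrays, and the part of such cells in that rise was not tested.

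Of 11 T cell and 11 B cell markers, 10 were lower in each list, with Thy1 at -0.73 and H2-Ab1 at -1.38, and none had p under 0.05. Of 6 NK cell markers, 4 were lower (median -0.20, and 0.03 with array spread in the model), Nkg7 at -1.75, while Klrb1c was higher. Of 14 megakaryocyte and platelet markers, 7 were higher and 7 lower, Vwf and Selp high, F2rl2 and Pf4 (-0.86) low. Of 11 erythroid markers, 7 were lower, and of 10 stromal markers, 9. Of 8 multipotent progenitor markers, 7 were lower, with Cd52 at 7.59, 4.89 and 6.65 in WT and 4.51, 3.88 and 4.87 in KO (difference -1.96). The single higher member was Cd34, described above, which differed by 1.62 and was separated upward. At unadjusted p under 0.05, 1 of the 8 was higher and 2 were lower. The part that a few cells of other types could have in single differences was not tested.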

How the data were processed

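Gene expression was measured in sorted haematopoietic stem cells on 9 Affymetrix Mouse Gene 2.0 ST arrays, 3 per genotype, after whole-transcript amplification of the RNA. The values used were the deposited log2 intensities, normalized by RMA per the submitters' processing notes. The sources used here name no genome build. The labels call the replicates biological. The platform annotation gave 1 symbol for 23521 of 41345 probe sets and several for 1814, which were left out, and 16010 it did not list stay unnamed. Each of 22180 genes was read from its probe set with the highest mean, and 1082 genes had more than 1 such probe set. Genes in the lowest 25% by mean over the 9 arrays (under 3.31) were left out, 5544 in all.

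The functions lmFit and eBayes of limma (version 3.58.1, R 4.3.3) fitted a mean per genotype over the 9 arrays. Residual degrees of freedom were 6 and prior ones 4.26. The KO minus WT contrast was adjusted by the Benjamini-Hochberg method over 16636 genes, and the procedure was tested on simulated data. The number of arrays limits the precision. Gene lists were defined by symbols. The comparison and the lists were chosen with earlier results of these data known. The list of retinoid metabolism was added, and the stem of the cystatin list was corrected, after values were seen. Some gene lists are not reported here. Of the retinoid genes, 9 were higher and 13 lower, and 1 in each direction (Rdh10 and Aldh1a1) had unadjusted p under 0.05.

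Named genes were Bcl11a, each called gene, the 30 higher and 20 lower genes with the smallest p (without predicted genes, small RNAs, olfactory receptors and sex-linked markers), the sort markers, and for each list described the 2 members with the smallest p in each direction. The remaining GTPases, Irf1, Tek, Cdh5, Cldn5, Stab2, Sox17, Cysltr1 and Prdx3 were named after their values were seen. Alternatives changed the filter, the arrays fitted, the scaling, the weights, the probe set rule and each array in turn. Same-numbered arrays deviated together at correlations of -0.185 to 0.229, so the numbers were not taken to pair the samples. Ly6a, the gene of Sca-1, is not reported.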

Additional observations from a re-analysis of the deposited data

How the results depend on the processing

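The count of 7 genes past the adjusted threshold moved under most alternatives. It was 4 when only genes from the median level up were kept, 1 on the 6 KO and WT arrays alone, 3 with sex as a term, 3 after a further quantile normalization, 0 with array spread (the interquartile range) in the model and 24 with array weights, and it ranged from 0 to 15 when single arrays were left out. With WT replicate 1 and KO replicate 3 left out together, a choice made after seeing the data, it was 2. With the replicate number as a block it was 0, where the numbers share no known litter or batch and only name the arrays; the block gave 909 higher and 379 lower genes at unadjusted p under 0.05. The count of genes higher at unadjusted p under 0.05 (899) was 573 with array spread in the model and ranged from 588 to 1230 without single arrays. The count of lower genes (467) was 716 without the filter, 205 when only genes from the median level up were kept, 291 with arrays centred on their medians and 883 with array weights, and ranged from 294 to 779 without single arrays. The Bcl11a difference kept its sign and stayed above the threshold in each alternative. Of the called genes, the genes named by p and the sort markers, Cd48 alone changed sign, to 0.06 with sex as a term, 0.08 with array spread in the model, 0.14 without WT replicate 1, 0.01 without WT replicate 3 and 0.05 without KO replicate 1, and it ranged from -0.46 to 0.14 without single arrays. With 3 arrays a group, differences near the median standard error of 0.298 could not be resolved.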
